A study of Mus musculus with 6 samples.

Results

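The genes described here are 10 transcription factors and early response genes, the Krüppel-like factors Klf2, Klf4 and Klf6, the AP-1 subunits Fos, Fosb, Jun and Junb, and Egr1, Atf3 and Ier2. They were taken by gene name from the read counts of 21999 genes, and all 10 had a row and passed the filter on low counts, as did 13609 genes in all. They were chosen by name with their read counts in these 6 libraries already in view from an earlier analysis, so their levels in single libraries are given as a description. Total RNA of lung microvascular endothelial cells (LMVEC) from untreated SV129/B6 mice was sequenced in 3 Ptprz1+/+ libraries and 3 libraries labelled Ptprz1-/-, Ptprz1 being the gene of a receptor-type tyrosine phosphatase. Each library came from a separate isolation that pooled the lungs of 2 to 5 mice aged 3 to 8 weeks. The cells had been released with collagenase, grown to confluence in serum with endothelial growth supplement and heparin, and then taken with magnetic beads against CD31, the endothelial surface protein encoded by Pecam1. The question was whether the levels of Klf2 follow those of the immediate-early genes or those of endothelial genes across these 6 libraries.

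Immediate-early genes are transcribed within minutes of a stimulus such as serum, stretch or cell dissociation, with no need for new protein, and their mRNAs are short-lived. They include subunits of AP-1, typically a dimer of a Fos and a Jun family protein, and the zinc finger factor Egr1. Klf2 and Klf4 are zinc finger factors that endothelium raises under laminar blood flow through the kinases MEK5 and ERK5 and the MEF2 factors, and Klf2 is therefore often read as a gene of quiescent endothelium. Klf4 and Klf6 are also made by many other cells, including fibroblasts.

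The 250 bases before the RefSeq start of Klf2, Fos, Fosb and Atf3 are shown because the question turns on Klf2, because Fos and Fosb had the widest ranges of the immediate-early genes, and because Atf3 was the exception to their pattern. They are printed 5′ to 3′ on the strand of the gene, from the RefSeq table for GRCm38.p6. Capitals mark TGACG (or its reverse complement CGTCA), the core of the cyclic AMP response element, the letters TATAAA, and the MEF2 site.
Klf2, chr8:72318812-72319061, plus strand: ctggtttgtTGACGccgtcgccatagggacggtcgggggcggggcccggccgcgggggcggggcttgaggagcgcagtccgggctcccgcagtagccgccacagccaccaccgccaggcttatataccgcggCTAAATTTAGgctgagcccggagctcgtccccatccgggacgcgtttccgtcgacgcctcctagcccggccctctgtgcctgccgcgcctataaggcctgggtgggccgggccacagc
Fos, chr12:85473640-85473889, plus strand: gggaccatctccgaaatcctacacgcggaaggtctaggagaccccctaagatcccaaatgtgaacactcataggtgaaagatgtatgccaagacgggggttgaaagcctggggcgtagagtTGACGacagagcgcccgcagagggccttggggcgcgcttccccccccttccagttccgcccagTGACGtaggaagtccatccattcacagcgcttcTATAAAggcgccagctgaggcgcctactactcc
Fosb, chr7:19310046-19310295, minus strand: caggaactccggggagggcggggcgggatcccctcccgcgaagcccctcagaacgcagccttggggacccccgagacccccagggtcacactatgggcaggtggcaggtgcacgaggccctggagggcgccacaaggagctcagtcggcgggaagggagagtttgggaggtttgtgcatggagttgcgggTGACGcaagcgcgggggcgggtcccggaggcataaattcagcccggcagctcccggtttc
Atf3, chr1:191183334-191183583, minus strand: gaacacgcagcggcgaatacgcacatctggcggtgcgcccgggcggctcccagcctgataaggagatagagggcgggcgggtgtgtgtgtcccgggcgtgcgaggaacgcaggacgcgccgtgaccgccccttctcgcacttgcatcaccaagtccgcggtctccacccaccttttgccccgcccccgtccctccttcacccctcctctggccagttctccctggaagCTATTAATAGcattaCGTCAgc
The window of Klf2 holds TGACG 241 bases and a MEF2 site 118 bases before the start. That of Fos holds TGACG at 129 and 66 bases and TATAAA at 33 bases, that of Fosb holds TGACG at 60 bases, and that of Atf3 holds a MEF2 site at 22 bases and TGACG at 7 bases. In the deposited table, the gene models of Klf2 and Atf3 begin inside these windows, ahead of the RefSeq start.

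Of the 10 genes, 8 had a matched window (all but Egr1 and Ier2), and 7 motifs were searched on both strands. TGACG stood in 6 of the 8 (Klf2, Klf4, Fos, Fosb, Junb and Atf3), against 17.9% of the 27025 promoters of the table. The MEF2 site stood in 3 of the 8 (Klf2, Jun and Atf3), against 1.73% of all promoters. GGGCGGG, the GC box, stood in 5 (Klf2, Klf4, Fosb, Jun and Atf3), against 23.6%, and TATAAA in Fos alone, against 13.0%. The CArG box, the AP-1 site TGANTCA and the EGR core GTGGGCG, which can share letters with a GC box, had 0 matches in the 8 windows, against 1.40%, 6.87% and 7.06% of all promoters. The search did not reach bases outside these windows, and Egr1 and Ier2 were not searched. A count of 0 matches therefore does not show that a gene lacks the motif. These are matches of letters, and none was tested as a site.

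Before the levels of the 10 genes, the labels were checked against the counts. Between 14496881 and 17709663 reads were counted per library. Ptprz1, the targeted gene, counted 197, 1837 and 508 reads in Ptprz1+/+ (replicate 1, 2 and 3, the order used throughout) against 1138, 1320 and 895 reads in the libraries labelled Ptprz1-/-, so its counts do not separate the genotypes and each genotype direction rests on the labels. Pecam1 was at 3.81, 4.40 and 91.0 CPM in Ptprz1+/+ and at 1.36, 1.51 and 32.4 CPM in those labelled Ptprz1-/- (CPM, counts scaled to the TMM-adjusted library size). The summed level of 20 blood endothelial markers was 53.0 to 60.1 CPM in Ptprz1+/+ replicates 1 and 2, 706 CPM in replicate 3, and 45.5, 38.3 and 232 CPM in the libraries labelled Ptprz1-/-, with no marker at 0 in any library. The summed level of 10 fibroblast markers was between 10968 and 27401 CPM. It was highest in replicates 3 of both genotypes, at 25905 and 27401 CPM. The endothelial label was therefore weakly borne out in 4 of the 6 libraries, and the fibroblast sum was far above the endothelial sum in all 6. Less RNA of a gene per cell and fewer cells that make it cannot be told apart in these bulk samples.

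**Figure D1:**
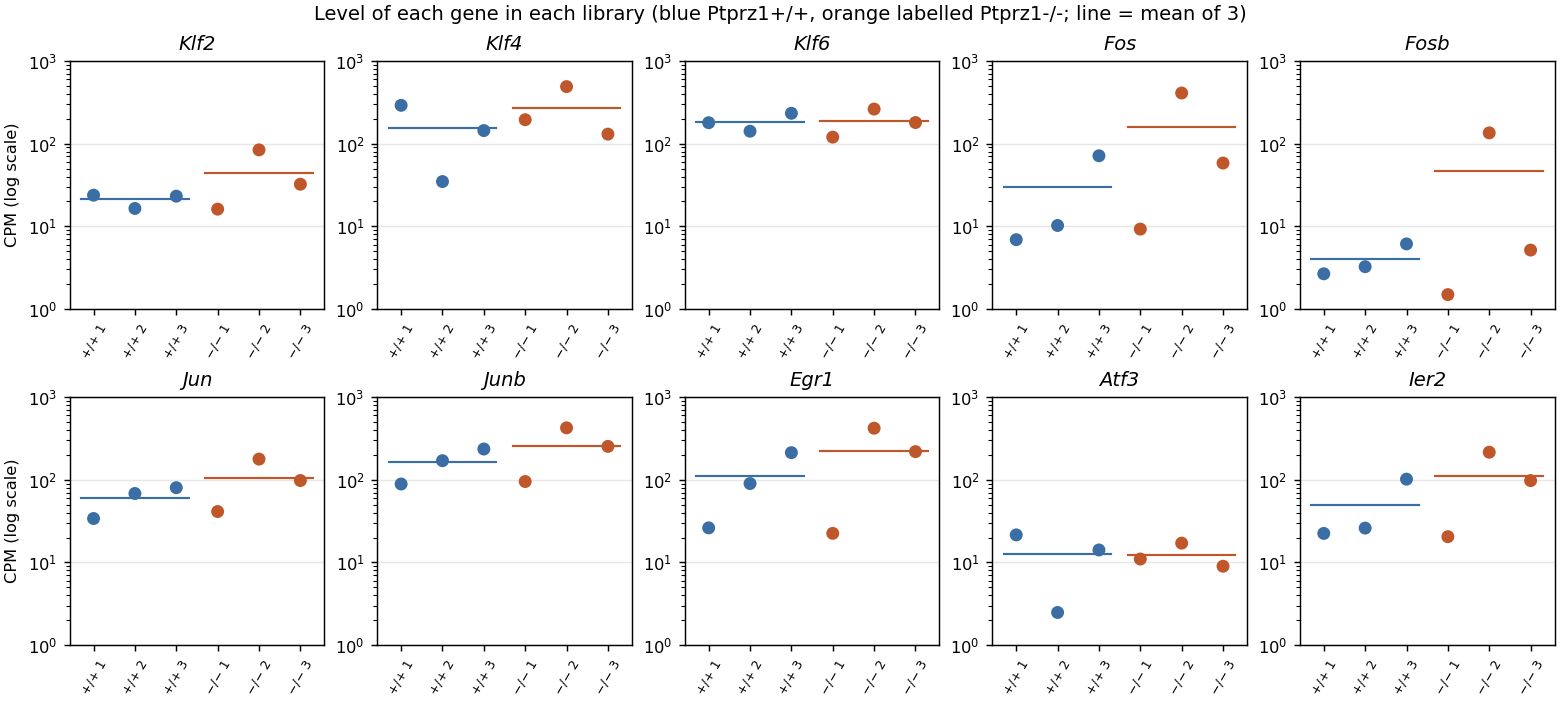
Level of each of the 10 genes in each library, in CPM on a log axis. Points are single libraries, blue for Ptprz1+/+ and orange for those labelled Ptprz1-/-, and lines are the means of 3 libraries. The library labelled Ptprz1-/- replicate 2 holds the highest point in 9 of the 10 panels, from 135 CPM against 6.12 CPM in the next library for Fosb to 262 CPM against 233 CPM for Klf6, and the genotypes overlap in every panel.

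One library stood out in nearly all of these genes. The library labelled Ptprz1-/- replicate 2 was the highest of the 6 for 9 of the 10 genes, while it was the highest for 15.7% of the genes tested. Atf3 was the exception and was highest in Ptprz1+/+ replicate 1, as were 15.2% of the genes tested. The lowest level lay in the library labelled Ptprz1-/- replicate 1 for 5 genes (16.3% of all), in Ptprz1+/+ replicate 1 for Fos, Jun and Junb (12.8% of all) and in Ptprz1+/+ replicate 2 for Klf4 and Atf3 (26.5% of all). The genotypes overlapped for all 10 genes, and 0 of 10 had all 3 libraries of one genotype beyond those of the other, as did 7.28% of the genes tested.

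Klf2 (ENSMUSG00000055148, chr8:72319033-72321656) was at 23.8, 16.4 and 23.2 CPM in Ptprz1+/+ and at 16.1, 84.1 and 32.3 CPM in those labelled Ptprz1-/-, from 260 to 1226 counts. It was nearly level in the Ptprz1+/+ libraries, and its spread came from the libraries labelled Ptprz1-/-, where the highest was 5.22 times the lowest. Means were 21.1 ± 4.08 CPM in Ptprz1+/+ and 44.2 ± 35.5 CPM in the libraries labelled Ptprz1-/- (SD, n = 3 each), a log2 fold change of 1.06 (standard error 0.57) that became 0.20 (standard error 0.35) without the library labelled Ptprz1-/- replicate 2. The difference between genotypes is thus within the spread between the libraries labelled Ptprz1-/-.

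Klf4 (ENSMUSG00000003032, chr4:55527143-55532466), a factor of epithelial and smooth muscle cells as well as endothelium, was at 291, 34.8 and 144 CPM in Ptprz1+/+ and at 195, 491 and 131 CPM in those labelled Ptprz1-/-. Unlike Klf2, it had a single low library, Ptprz1+/+ replicate 2, and the highest Ptprz1+/+ library was 8.37 times that one. Its log2 fold change was 0.80 (standard error 0.80) and became 0.05 without the library labelled Ptprz1-/- replicate 2 and 1.61 without Ptprz1+/+ replicate 1. Klf6 (ENSMUSG00000000078, chr13:5861489-5870393), a widely made factor that injury raises, was at 179, 142 and 233 CPM in Ptprz1+/+ and at 120, 262 and 180 CPM in the libraries labelled Ptprz1-/-. It varied least of the 10, 2.19-fold from lowest to highest, and its log2 fold change was 0.02 (standard error 0.32), which became -0.30 without the library labelled Ptprz1-/- replicate 2.

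Fos (ENSMUSG00000021250, chr12:85473890-85477273), the founding Fos subunit of AP-1, was at 6.89, 10.2 and 71.4 CPM in Ptprz1+/+ and at 9.24, 411 and 58.3 CPM in those labelled Ptprz1-/-, or 114 to 5981 counts. The levels lay in 3 tiers, with 3 libraries from 6.89 to 10.2 CPM, 2 at 58.3 and 71.4 CPM, and 1 at 411 CPM, and both lower tiers hold libraries of both genotypes. The highest library was 59.6 times the lowest. Fosb (ENSMUSG00000003545, chr7:19302721-19310045), a second Fos subunit, was at 2.66, 3.24 and 6.12 CPM in Ptprz1+/+ and at 1.49, 135 and 5.15 CPM in the libraries labelled Ptprz1-/-. It rested on 24 to 97 counts in 5 libraries and had 1969 counts in the library labelled Ptprz1-/- replicate 2.

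Fos and Fosb had log2 fold changes of 2.43 (standard error 1.47) and 3.56 (standard error 1.59), the largest of the 10 genes. Without the library labelled Ptprz1-/- replicate 2, these became 0.20 (standard error 1.24) for Fos and -0.27 (standard error 0.67) for Fosb, so both genotype differences rest on that library.

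Jun (ENSMUSG00000052684, chr4:95049034-95052222), the founding Jun subunit, was at 33.9, 68.2 and 80.2 CPM in Ptprz1+/+ and at 41.2, 178 and 97.9 CPM in the libraries labelled Ptprz1-/-. It shares 232 exon bases with Junos on the opposite strand, and reads of the pair cannot be told apart unless strand was used in counting, which is not given in the sources used here. Junb (ENSMUSG00000052837, chr8:84976909-84978748), the Jun subunit with the weaker activation of targets, was at 88.9, 170 and 236 CPM in Ptprz1+/+ and at 95.2, 425 and 254 CPM in the libraries labelled Ptprz1-/-. Both genes ran in the same order from lowest to highest, with replicate 1 of each genotype low and the library labelled Ptprz1-/- replicate 2 on top. Their log2 fold changes were 0.80 (standard error 0.56) for Jun and 0.65 (standard error 0.58) for Junb, and 0.20 and 0.08 without that library.

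Egr1 (ENSMUSG00000038418, on chromosome 18), a zinc finger factor induced by serum and vascular injury, was at 26.2, 90.0 and 213 CPM in Ptprz1+/+ and at 22.5, 421 and 219 CPM in the libraries labelled Ptprz1-/-. Replicates 1 of both genotypes were the lowest and replicates 3 of both were alike. Ier2 (ENSMUSG00000053560, chr8:84661331-84662852), an early response gene induced by serum, was at 22.4, 26.0 and 102 CPM in Ptprz1+/+ and at 20.5, 216 and 97.7 CPM in the libraries labelled Ptprz1-/-. It had the same tiers as Fos, on a range of 10.5-fold. Log2 fold changes were 1.01 (standard error 1.08) for Egr1 and 1.15 (standard error 0.92) for Ier2, and 0.14 and 0.24 without the library labelled Ptprz1-/- replicate 2.

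Atf3 (ENSMUSG00000026628, chr1:191170296-191183340), a repressor of the ATF family that is induced both by mitogens and by the integrated stress response, was at 21.5, 2.47 and 14.1 CPM in Ptprz1+/+ and at 11.0, 17.1 and 8.98 CPM in the libraries labelled Ptprz1-/-. Only Ptprz1+/+ replicate 2, with 45 counts, stood apart, and it was low. The log2 fold change was -0.04 (standard error 0.70). It became 0.58 without Ptprz1+/+ replicate 1 and -0.53 without Ptprz1+/+ replicate 2.

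**Figure D2:**
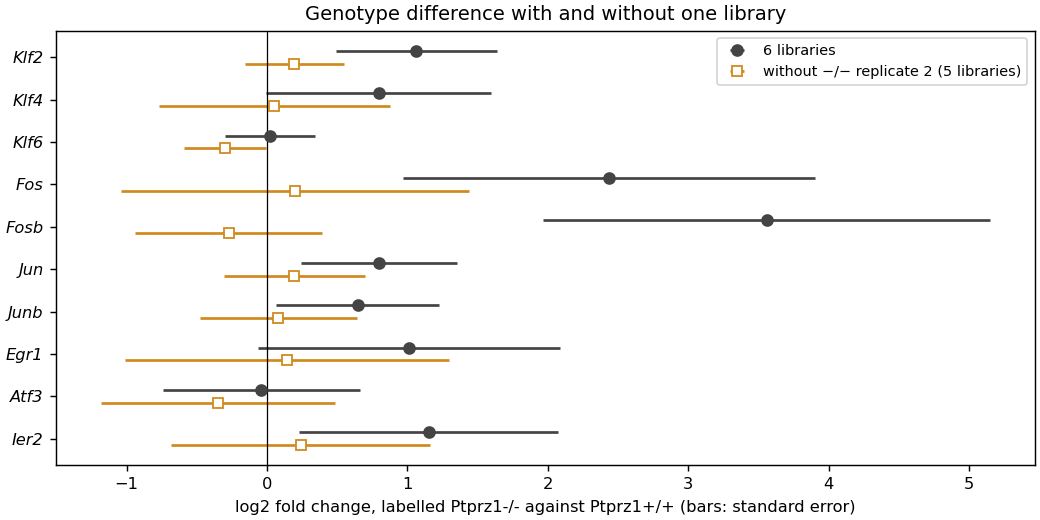
Log2 fold change of each gene, libraries labelled Ptprz1-/- against Ptprz1+/+, with its standard error as a bar. Filled circles are the fit to 6 libraries and open squares the fit without the library labelled Ptprz1-/- replicate 2. The circles run from -0.04 for Atf3 to 3.56 for Fosb, while the squares lie between -0.35 and 0.24.

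By the quasi-likelihood test of edgeR, adjusted after Benjamini and Hochberg, 0 of the 10 genes passed an adjusted p of 0.05, with adjusted p = 1.00 for each, as did 0 (0%) of the 13609 genes tested. At an unadjusted p under 0.05 there were 0 of the 10 genes and 366 (2.69%) of all. DESeq2 called 31 genes (0.189% of 16398) and edgeR's likelihood ratio test 17, with 0 of the 10 genes among either, though DESeq2 gave no p-value for Fosb. The log2 fold change was positive in 9 of the 10 genes, with a median of 0.90, against -0.0047 over all genes tested. Without the library labelled Ptprz1-/- replicate 2, it was positive in 7, with a median of 0.11.

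Compared between genes per kilobase of gene length (RPKM), Junb was the most abundant, at 48.3 to 231 RPKM over the 6 libraries with a median of 110 RPKM. It was followed by the medians of Klf4 at 56.0, Klf6 at 42.7, Ier2 at 40.6, Egr1 at 33.8, Jun at 23.3, Fos at 16.2, Klf2 at 12.7, Atf3 at 6.33 and Fosb at 1.12 RPKM. The ranges of neighbours in this order overlap for every pair. In the library labelled Ptprz1-/- replicate 2, Fos was second at 195 RPKM, behind Junb at 231 RPKM, and Fosb, at 36.0 RPKM, was above Atf3 at 8.61 RPKM.

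The excess of the library labelled Ptprz1-/- replicate 2 over the next library reached 2 times or more, with 0.5 CPM added to each level, in 23 of the 13609 genes (0.169%). Of these 23, 4 were Fosb, Fos, Klf2 and Ier2, whose counts were in view when the genes were chosen, so nothing is read from the share. Among the 10650 genes with a mean of at least 5 CPM, Fosb ranked 1st at 20.5 times the next library, Fos 3rd at 5.72 times, Klf2 8th at 2.58 times, Ier2 13th at 2.11 times and Egr1 18th at 1.92 times. Jun reached 1.81, Klf4 1.68, Junb 1.68 and Klf6 1.12 times. A further 5 of the 23 came from the other Krüppel-like, AP-1 and immediate-early genes listed, named after their values were seen. They were Dusp1, which encodes a MAP kinase phosphatase, at 293 CPM against 109 CPM in the next library, the orphan nuclear receptor genes Nr4a1 and Nr4a3, Maff, and the antiproliferative gene Btg2.

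The rest of the pathway was followed in lists of genes. Of 31 other immediate-early genes tested, 19 (61.3%) were highest in the library labelled Ptprz1-/- replicate 2, against 15.7% of all genes tested. The median log2 fold change of the 31 was 0.19, or -0.04 without that library. Cyr61, a matricellular gene and the most abundant of them, was at 274, 172 and 481 CPM in Ptprz1+/+ and at 264, 677 and 375 CPM in the libraries labelled Ptprz1-/-. Ctgf, a second matricellular gene, was at 195, 48.5 and 155 CPM against 319, 412 and 198 CPM, and was the single one of these 31 whose genotypes did not overlap (3.55% of all genes tested lay this way), with a log2 fold change of 1.22 (standard error 0.53). Socs3, the cytokine signalling inhibitor, was highest in the library labelled Ptprz1-/- replicate 3, at 346 CPM. None of the 31 passed the adjusted threshold.

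Relatives of the 10 genes by family were read in the same way, and the difference from the 10 genes was not tested. Of 12 other AP-1, ATF and MAF genes tested, 5 (41.7%) were highest in the library labelled Ptprz1-/- replicate 2, against 15.7% of all genes tested. Jund, the constitutive Jun subunit, was at 140, 92.5 and 133 CPM in Ptprz1+/+ and at 142, 256 and 162 CPM in the libraries labelled Ptprz1-/-. The latter lay above without overlap (log2 fold change 0.62, standard error 0.27), in Jund alone of the 12 and in 3.55% of all genes tested. Fosl2 and Atf4, the most abundant, were highest in the library labelled Ptprz1-/- replicate 3, at 423 CPM, and in Ptprz1+/+ replicate 1, at 410 CPM. Of 11 other Krüppel-like factors tested, 2 (18.2%) were highest in the library labelled Ptprz1-/- replicate 2. The median range of the 11 was 0.83 on the log2 scale, against 3.13 for the 10 genes and 0.73 over all genes tested. Klf3 stayed between 86.8 and 145 CPM and Klf9 between 77.5 and 145 CPM. Klf5 was at 8.03, 3.46 and 8.08 CPM in Ptprz1+/+ and above that without overlap, at 13.3, 8.85 and 9.58 CPM, in the libraries labelled Ptprz1-/-. Klf5 alone of the 11 did not overlap, against 3.55% of all genes tested that lay this way.

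Genes that lie upstream were read next. Flow sensing and the MEK5, ERK5 and MEF2 route to Klf2 and Klf4 were read in 11 genes. Of these, 5 (45.5%) were highest in the library labelled Ptprz1-/- replicate 2, against 15.7% of all genes tested. The median range of the 11 was 0.88 on the log2 scale, against 0.73 over all genes tested. The stretch channel gene Piezo1 was highest in the library labelled Ptprz1-/- replicate 1, at 1334 CPM, and Heg1, a receptor of the cerebral cavernous malformation route, in replicate 2, at 873 CPM against 624 CPM in the next library. Of 13 genes for CREB, partners of SRF and feedback on ERK, 6 (46.2%) were highest in the library labelled Ptprz1-/- replicate 2. Srf itself was counted with the other immediate-early genes. It was highest in Ptprz1+/+ replicate 3, at 84.7 CPM, against 72.8 CPM in the library labelled Ptprz1-/- replicate 2. Among the ERK feedback genes, Spred2 reached 1.55, Dusp6 1.45, Spry4 1.25, Spred1 1.07 and Spry2 1.04 times the next library there. The ratio of Dusp4, a further ERK feedback gene of this list, is not given here. Over all 13 genes, the median ratio was 0.998. Elk1, a partner of SRF, was at 32.5, 39.4 and 35.9 CPM in Ptprz1+/+ and lower without overlap, at 30.5, 29.6 and 28.3 CPM, in the libraries labelled Ptprz1-/- (3.73% of all genes tested lay this way).

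Known endothelial targets were read beside Klf2 and Klf4. Over all genes tested, 15.7% were highest in the library labelled Ptprz1-/- replicate 2, where Klf2 was highest. Of 7 genes tested that Klf2 or Klf4 is known to raise in endothelium, 1 (14.3%) was highest there. That one was Thbd, the thrombomodulin gene, at 368, 436 and 643 CPM in Ptprz1+/+ and at 255, 685 and 561 CPM in the libraries labelled Ptprz1-/-. Cav1, the caveolin gene, was lowest in that library, at 67.5 CPM, and Nos3, the endothelial nitric oxide synthase gene, which failed the filter, was at 0.24, 0.33 and 7.26 CPM in Ptprz1+/+ and at 0.43, 0.21 and 3.37 CPM in the libraries labelled Ptprz1-/-. Of 5 tested genes that these factors are known to lower, 0 were highest in that library. Vcam1, an adhesion gene, was at 598 CPM there, inside its range of 350 to 639 CPM.

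**Figure D3:**
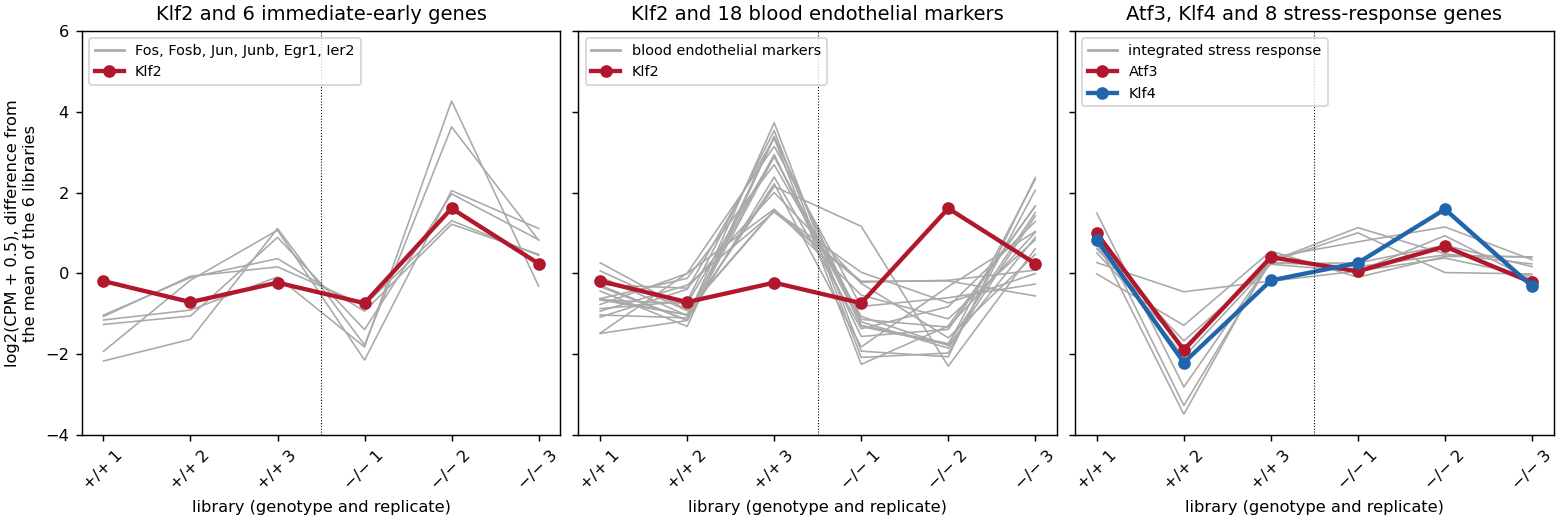
Difference of each gene's log2(CPM + 0.5) from its own mean over the 6 libraries. The left panel sets Klf2 against 6 immediate-early genes, the middle panel against 18 blood endothelial markers, and the right panel sets Atf3 and Klf4 against 8 genes of the integrated stress response. Klf2 peaks with the immediate-early genes in −/− replicate 2, where it is at 84.1 CPM, and lacks the peak of the endothelial markers in +/+ replicate 3, where it is at 23.2 CPM.

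Over the 6 libraries, Klf2 did not have the pattern of the endothelial markers. All 18 blood endothelial markers tested were highest in Ptprz1+/+ replicate 3 (13.0% of all genes tested), and 9 were lowest (16.5% of all) in the library labelled Ptprz1-/- replicate 2, where Klf2 was highest. In Ptprz1+/+ replicates 1 and 3, Pecam1 was at 3.81 and 91.0 CPM and Klf2 at 23.8 and 23.2 CPM. The transcription factor gene Erg, at 0.85, 0.77 and 15.5 CPM in Ptprz1+/+ and at 0.37, 0.14 and 5.55 CPM in the libraries labelled Ptprz1-/-, and Tie1, a receptor gene at 65.5 CPM in Ptprz1+/+ replicate 3 and at 0.69 to 25.3 CPM elsewhere, ran as Pecam1 did. Cdh5, the VE-cadherin gene, was at 199 CPM in Ptprz1+/+ replicate 3 and at 3.60 to 61.3 CPM elsewhere.

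Nor did Klf2 follow the immediate-early genes in every library. Between Ptprz1+/+ replicates 1 and 3, Fos differed 10.4-fold and Klf2 stood still. The likeness of 2 genes was measured as the root mean square difference of their log2(CPM + 0.5) profiles, each centred on its mean, so that 0 is an identical pattern. The median distance of Klf2 was 0.88 to the 9 other genes, 1.84 to the 18 endothelial markers and 0.84 to all genes tested, so Klf2 was no nearer to the 9 genes than to the median gene tested on this scale. Between single genes it was 0.49 to Jun, 0.53 to Junb and 0.54 to Klf6, and 1.42 to Fos, whose range is wider. A second scale, added after the data were seen, divided each profile by its own spread, so that 2 is an opposite pattern. At this equal spread, the medians were 0.64 to the 9 genes, 1.50 to the endothelial markers and 1.43 to all genes tested. Fosb was nearest of the 9, at 0.32.

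At equal spread, the order of these medians rested on the library labelled Ptprz1-/- replicate 2. Without it, the equal-spread median of Klf2 was 0.94 to the 9 other genes and 0.88 to the endothelial markers, a difference of 0.061 in place of -0.86, and 1.43 to all genes tested. At equal spread over these 5 libraries, Klf2 was thus nearer to both lists than to the median gene tested. It was about as near to either list. On the log2 scale without that library, its medians were 0.81 to the 9 other genes, 1.28 to the endothelial markers and 0.45 to all genes tested. There Klf2 stayed nearer to the 9 genes than to the endothelial markers, but was farther from both than from the median gene tested. In the 5 remaining libraries Klf2 was at 16.1 to 32.3 CPM, highest in the library labelled Ptprz1-/- replicate 3. At equal spread, the 5 libraries also brought other members of the group near the endothelial markers. Fos was then at 0.42 from these markers and 0.54 from the other 9 genes, against 1.27 and 0.43 over 6 libraries, Ier2 at 0.42 and 0.55, against 1.14 and 0.52, Fosb at 0.48 and 0.53, against 1.52 and 0.56, and Klf6 at 0.53 and 0.84, against 1.14 and 0.67. In these 5 libraries Fos, Fosb, Ier2, Jun, Junb, Egr1 and, narrowly, Klf6 were highest in replicates 3 of both genotypes. These libraries also had the most Pecam1, at 91.0 and 32.4 CPM. They had the highest summed fibroblast markers as well, at 25905 and 27401 CPM. Jun, Junb and Egr1 stayed nearer to the other 9 genes, at 0.60, 0.46 and 0.44, than to the endothelial markers, at 0.84, 0.73 and 0.66.

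**Figure D4:**
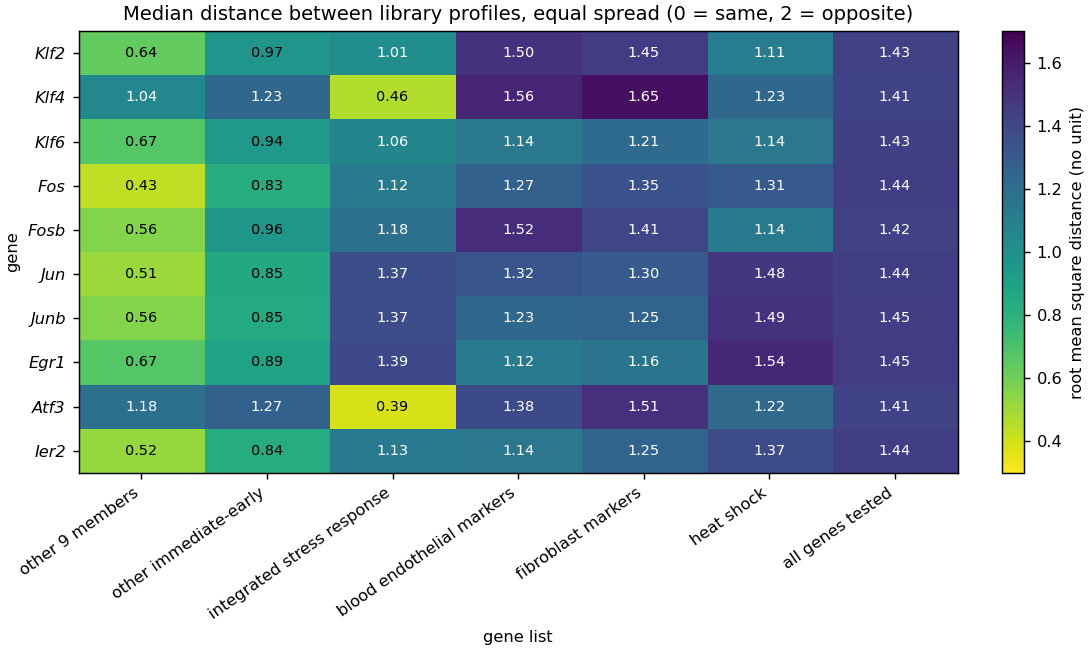
Median root mean square distance, with profiles at equal spread over 6 libraries, from each of the 10 genes (rows) to the genes of 7 lists (columns), with 0 for the same and 2 for the opposite pattern. The 8 genes Klf2, Klf6, Fos, Fosb, Jun, Junb, Egr1 and Ier2 are nearest to the other 9 genes (0.43 to 0.67), whereas Klf4 and Atf3 are nearest to the integrated stress response genes (0.46 and 0.39).

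Within the group, Jun and Junb were the closest pair at equal spread, at 0.14, followed by Egr1 and Junb at 0.16 and Fos and Ier2 at 0.18. Klf4 and Atf3 stood outside, 0.39 from each other and at medians of 1.04 and 1.18 from the other 9 genes. Their medians to 8 genes of the integrated stress response, the programme that Atf4 drives when translation is curbed, were 0.46 and 0.39. All 8 of these genes were lowest in Ptprz1+/+ replicate 2, as Klf4 and Atf3 were (26.5% of all genes tested). Ddit3, the CHOP gene, was at 609, 30.3 and 264 CPM in Ptprz1+/+ and at 433, 219 and 214 CPM in the libraries labelled Ptprz1-/-. Atf5, a further factor of this programme, was at 484, 95.4 and 411 CPM in Ptprz1+/+ and at 381, 467 and 450 CPM in the libraries labelled Ptprz1-/-. Without Ptprz1+/+ replicate 2, the medians to these 8 genes were 0.69 for Klf4 and 0.92 for Atf3, and those to the other 9 genes 1.17 and 1.44.

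Among 10649 genes with a mean of at least 5 CPM, the profiles nearest to Klf2 on the log2 scale were those of Pax1 at 0.17, Ctsk at 0.31, Fgf10 and Rspo3 at 0.36 and Maff at 0.37. Pax1, a paired box factor gene, was at 6.58, 4.23 and 6.06 CPM in Ptprz1+/+ and at 4.53, 23.7 and 12.4 CPM in the libraries labelled Ptprz1-/-. Fgf10 encodes a growth factor of lung mesenchyme, Rspo3 a Wnt enhancer and Ctsk the collagen protease cathepsin K. Of the 9 other genes of the group, Jun came 42nd, Junb 77th, Klf6 96th, Ier2 2871st, Klf4 7107th, Atf3 7821st, Egr1 9894th, Fosb 10124th and Fos 10309th, and Pecam1 came 10631st. At equal spread, Fosb came 27th, Jun 367th and Atf3, the last of the 9, 2332nd, and Pecam1 came 6485th. Nearest to Fos on the log2 scale were Ier2 at 0.83, Fosb at 0.88 and Egr1 at 0.90. Then came Btg2 at 1.08 and Fgf23, a growth factor gene, at 1.13, and Klf2 came 27th. At equal spread, Frat2 was nearest to Fos at 0.090 and Ier2 came 2nd at 0.18, while Klf2 came 163rd.

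Other values of the library labelled Ptprz1-/- replicate 2 were set beside its excess. Of 9 heat shock genes, which cell dissociation can raise, 3 (33.3%) were highest there, against 15.7% of all genes tested. The summed level of the 9 was 2224 CPM there, inside a range of 1661 to 2287 CPM. Hspa8 was at 944 CPM and Hsp90aa1 at 677 CPM there, inside ranges of 686 to 1078 CPM and 467 to 683 CPM. The summed levels of blood endothelial markers, at 38.3 CPM, and of fibroblast markers, at 10968 CPM, were the lowest of the 6 libraries, with Col1a1 at 2494 CPM against 3792 to 5992 CPM elsewhere. Those of smooth muscle and pericyte markers (1672 CPM), mesothelial markers (115 CPM) and leukocyte markers (25.3 CPM) lay inside the range of the other libraries. Of the 9 smooth muscle and pericyte markers, 2 (22.2%) were highest there, against 15.7% of all genes tested. The median of the 9 was 0.21 times the highest other library, with 0.5 CPM added. Only 1 of the 9 reached 2 times the next library, Cspg4, a proteoglycan gene of pericytes. It was at 35.6 CPM there against 12.8 CPM, 2.71 times with 0.5 CPM added, and ranked 6th of the 10650 genes by this excess. The 6 lymphatic markers summed to 344 CPM in the library labelled Ptprz1-/- replicate 2, beside 343 CPM in Ptprz1+/+ replicate 3. Pdpn made up 283 CPM of the former, against 281 CPM in the next library. Of the 6 markers, 1 was highest in that library (15.7% of all genes tested) and 2 were lowest there (16.5% of all). Another 4 were highest in Ptprz1+/+ replicate 3 (13.0% of all). The lung epithelial markers summed to between 0.44 and 1.63 CPM over the 6 libraries. Thy1 and Fbln1, 2 of the 10 fibroblast markers, and Csf1r, 1 of the 4 leukocyte markers tested, were lower without overlap in the libraries labelled Ptprz1-/-, as were 3.73% of all genes tested. The part of cell makeup in the levels of the 10 genes was not tested.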

How the data were processed

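RNA of 6 LMVEC isolations was analysed, 3 per genotype label. The authors deposited 1 table with the reads counted per gene and library, as counts without normalization. The table also holds FPKM values per library, a mean signal per genotype of normalized counts, and the authors' own log2 fold change with its p-value and adjusted p-value, and these deposited comparison columns were not used. The gene length of the table was used for RPKM. The submitters' processing notes name STAR, HTSeq, TopHat, DESeq2 and edgeR and the builds GRCm38 and mm10. Versions, the annotation release and the use of strand are not given in the sources used here. All 10 genes overlap their GENCODE M21 position on GRCm38, with other boundaries there for Klf6, Fosb, Junb and Atf3, and transcripts were aligned with minimap2 2.31 to find similar stretches of at least 100 bases.

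Counts were normalized by TMM, filtered with filterByExpr and compared between genotypes by the quasi-likelihood test of edgeR 4.0.16 (R 4.3.3), with no term but genotype. P-values were adjusted over all genes tested (Benjamini-Hochberg, threshold 0.05). DESeq2 1.42.0 and limma 3.58.1 (voom) were alternatives. Standard errors were recovered from the size of the log2 fold change and the F statistic. The functions were tested on simulated data. The depth was 14496881 to 17709663 counts per library, and levels under about 100 counts are the least precise. With 3 libraries per genotype, p-values set the genotype difference against the spread between isolations, each a pool of mice, and not between single mice.

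The 10 genes and all lists were chosen with earlier results of these data known. The text names the 10 genes and Ptprz1, from each other list the 2 most abundant genes and up to 4 whose genotypes do not overlap by largest change, 8 reference genes, and the 5 nearest genes to Klf2 and to Fos, and other genes were named after their values were seen. A gene that this rule would name is not reported here. Of the lists, Klf14, Klf17, Ccl21a, Adgre1 and Cd3e were not analysed here.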

Additional observations from a re-analysis of the deposited data

How the results depend on the processing

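The log2 fold changes of the 10 genes did not pass the adjusted threshold in the 13 alternatives run per gene, except that DESeq2 gave no p-value for Fosb, with adjusted p-values from 0.80 to 1.00 in edgeR, DESeq2 and limma voom. Direction held for Klf2, Klf4, Fos, Jun, Junb, Egr1, Ier2 and Ptprz1. Klf6 turned to -0.020 with limma voom, and leaving out the library labelled Ptprz1-/- replicate 2 turned Fosb to -0.27 and Klf6 to -0.30. Atf3 turned to 0.43 with limma voom, which also moved Fosb from 3.56 to 1.37 and Fos from 2.43 to 1.85. Over the libraries left out in turn, Klf6 ran from -0.30 to 0.26, Atf3 from -0.53 to 0.58, Klf2 from 0.20 to 1.46, Fos from 0.20 to 4.22 and Fosb from -0.27 to 4.13. Genes called rose from 0 to 31 with DESeq2 and to 17 with edgeR's likelihood ratio test, and stayed at 0 in the other alternatives run, among them upper-quartile normalization and both filters on low counts. The distance of Klf2 to the 9 other genes minus that to the endothelial markers was -0.96. It was between -1.20 and -0.46 with single libraries left out. With profiles at equal spread, the same difference was -0.86 over 6 libraries and 0.061 without the library labelled Ptprz1-/- replicate 2. Both of these equal-spread alternatives were chosen after seeing the data.

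With the replicate number as a block, 0 genes passed, 690 had an unadjusted p under 0.05 in place of 366, Klf6 was at -0.028, Atf3 at 0.23, Fosb at 1.25 and Fos at 1.50. Deviations from the group means correlated at 0.45, -0.06 and 0.52 between libraries with numbers 1, 2 and 3. Between libraries with unlike numbers, they correlated at -0.57 to 0.092. Libraries with numbers 1 and 3 were thus alike across the genotypes, and those with number 2 were not. The main fit used genotype alone, and the block was run as an alternative. Fosb in 5 libraries and Atf3 in Ptprz1+/+ replicate 2 rest on under 100 counts, which limits their fold changes.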
